A study of Rattus norvegicus with 9 samples.

Results

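Complement and coagulation genes encode the blood proteins that mark and lyse microbes and that form and dissolve clots, and the liver is the main source of most of them. The 44 genes followed here were listed by name and looked up by gene symbol, and all 44 were found among the 17156 genes of the deposited rat liver RNA-seq tables. They were split by the cell type known to make each product: 36 are made mainly by hepatocytes, and 8 mainly by macrophages, stroma, endothelium or fat (C1qa, C1qb, C1qc, Cfp, Cfd, F3, Plat and Plau). Some of the 36, such as C3, C1r, C1s, C4b, Cfb and Serping1, are also transcribed by macrophages or stromal cells.

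All livers came from male Sprague-Dawley (SD) rats fasted for 12 h, whose age is not given in the sources used here, and each group held 3 rats. The normal group served as control without CCl4, a hepatotoxic solvent. The model group was gavaged with CCl4 at 2 ml/kg as a 50% oil solution, 2 times a week for 9 weeks, to bring about liver fibrosis. The TA group received the same CCl4 course and then tormentic acid (TA), a plant triterpenoid, at 3.0 mg/kg for 6 weeks, whereas the sources used here do not say what the model rats received in that time. The labels name the 3 TA libraries TA1, TA2 and TA3 without a dose, and the dose was taken from the design text. The study also treated CCl4 rats with a lower TA dose. The labels do not say which dose these libraries had, so that it is uncertain. A group given TA without CCl4 was not analysed here, and the injury model is a chemical one in whole liver, so that each library held hepatocytes together with every other liver cell.

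Complement works as a chain of proteases. C1q, mannose-binding lectins (Mbl1, Mbl2) or spontaneous C3 turnover start it, C2, C4 and factor B (Cfb) carry it to C3 and C5, and C6 to C9 build a pore in the target membrane, while factor I (Cfi), C4b-binding protein (C4bpa) and C1 inhibitor (Serping1) hold it back. Clotting starts when tissue factor (F3) meets factor VII or when factor XII is activated on a surface, and it runs through factors XI, IX and X to thrombin (F2), with antithrombin (Serpinc1), heparin cofactor II (Serpind1), protein C (Proc) and protein S (Pros1) as brakes. Plasmin from plasminogen (Plg) dissolves fibrin once tissue-type (Plat) or urokinase-type (Plau) plasminogen activator has cut it. In liver disease, plasma levels of many of these factors serve as measures of the organ's synthetic function.

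Hepatocyte-made genes are known to be read under liver-enriched factors such as HNF1, C/EBP and FOXA, and the sequence before their start sites was looked at for such motifs. RefSeq windows (GRCr8 assembly) were found for 32 of the 44 genes, 27 hepatocyte-made and 5 of other cells, and the 250 bases before each start site were searched on both strands for short motifs. The C/EBP motif TTGCNNAA was present in 10 of the 27 hepatocyte-made windows (37.0%), in 0 of the 5 others and in 9.22% of all 33469 windows. The HNF1 motif GTTAAT was present in 7 of 27 (25.9%) against 6.45% of all windows, and the FOXA motif TGTTTAC in 3 of 27 (11.1%) against 3.22%. A GC box, GGGCGG, was present in 1 of the 27, in 3 of the 5 others (C1qb, Cfd and Plau) and in 30.5% of all windows. These matches are descriptions of letters and not of bound sites, the motifs were chosen for hepatocyte factors, and no test was run on them. The windows below are shown because Serpinc1, F9, C8a and C3 are hepatocyte-made genes whose levels are described further on, and Plau is a gene of other cells. Capitals mark the motifs: the C/EBP motif in Serpinc1, F9, C8a and C3, also an HNF1 motif in C8a, which does not overlap it, and 3 GC boxes in Plau. Each is written 5′ to 3′ on the strand of its gene. Serpinc1 lies on the plus strand of chromosome 13 (chr13:75790308-75790557), F9 on the plus strand of chromosome X (chrX:143388392-143388641), C8a on the minus strand of chromosome 5 (chr5:124866632-124866881), C3 on the minus strand of chromosome 9 (chr9:2201340-2201589) and Plau on the minus strand of chromosome 15 (chr15:3511988-3512237).
Serpinc1: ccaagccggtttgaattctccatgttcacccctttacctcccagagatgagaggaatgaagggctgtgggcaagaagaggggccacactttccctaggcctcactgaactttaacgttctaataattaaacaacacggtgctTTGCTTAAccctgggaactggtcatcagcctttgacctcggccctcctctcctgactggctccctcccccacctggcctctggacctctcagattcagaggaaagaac
F9: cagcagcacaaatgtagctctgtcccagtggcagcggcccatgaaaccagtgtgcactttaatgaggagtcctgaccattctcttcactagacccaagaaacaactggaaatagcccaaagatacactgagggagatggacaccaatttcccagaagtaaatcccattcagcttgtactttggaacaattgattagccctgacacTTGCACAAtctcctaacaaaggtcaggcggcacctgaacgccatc
C8a: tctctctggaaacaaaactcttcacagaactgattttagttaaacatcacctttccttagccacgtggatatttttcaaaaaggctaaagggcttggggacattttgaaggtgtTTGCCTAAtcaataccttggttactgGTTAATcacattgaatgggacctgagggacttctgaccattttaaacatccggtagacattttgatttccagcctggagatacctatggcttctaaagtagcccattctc
C3: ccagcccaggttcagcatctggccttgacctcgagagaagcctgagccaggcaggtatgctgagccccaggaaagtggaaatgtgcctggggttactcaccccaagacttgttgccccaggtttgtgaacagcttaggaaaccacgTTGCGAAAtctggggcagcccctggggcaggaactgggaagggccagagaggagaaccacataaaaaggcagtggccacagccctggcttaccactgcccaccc
Plau: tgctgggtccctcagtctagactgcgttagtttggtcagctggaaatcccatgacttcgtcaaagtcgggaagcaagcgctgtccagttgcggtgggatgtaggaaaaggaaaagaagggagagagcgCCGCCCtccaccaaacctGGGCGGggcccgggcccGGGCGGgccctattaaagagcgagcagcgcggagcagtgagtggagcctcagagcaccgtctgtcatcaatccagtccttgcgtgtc

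The libraries held 13156735 to 18090405 counts. One of them stood apart: in the library of the first model rat the 50 most abundant genes took 27.9% of the counts, against 40.4% to 45.7% in the other 8, and counts were found for 15811 genes, against 14360 to 15465. The medians of the 36 and of the 8 genes in Model VS Normal and TA VS Model are therefore given with and without it. Single genes and calls are given without it only in part, and medians by role only with it. Without that rat, 24 of the 36 hepatocyte-made estimates in Model VS Normal were nearer to 0 by over 1.5 times or changed in sign. In TA VS Model 30 of the 36 did so. The liver label held in all groups: 10 hepatocyte markers (such as Alb and Apoc3) summed to 126607 to 149532 CPM (counts scaled to library size and by the trimmed mean of M-values, TMM) in normal livers, 27595 to 100629 in model livers and 94339.7 to 157975 in TA livers. The first model rat held the lowest of these sums.

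In the normal livers the 44 genes made up 3.11% to 3.48% of all counts. The order of their levels was read in FPKM, which divides by gene length. C3, the central complement protein, was highest at 1712 ± 55.8 FPKM (SD, n = 3), followed by thrombin's precursor F2 at 1062 ± 212, Serpinc1 at 818 ± 9.85, Cfb at 743 ± 40.1, Plg at 698 ± 200.1 and F12 at 678 ± 87.5 FPKM. C3 stood above all others in each normal liver. F2, from 824 to 1228 FPKM, reached down to the Serpinc1 range of 806 to 824, which lay above the Cfb range of 707 to 786, while Plg, from 473 to 857 FPKM, spanned Serpinc1, Cfb and F12 and could not be ranked among them. At the other end stood C4b at 0.31 ± 0.274 FPKM, F3 at 0.604 ± 0.35, Plat at 1.23 ± 0.21, Plau at 1.46 ± 0.439 and C2 at 2.77 ± 1.20 FPKM. The genes of other cells with the highest levels were the 3 chains of C1q, the macrophage-made sensor of immune complexes, at 104 ± 22.7 FPKM for C1qa, 81.8 ± 12.6 for C1qc and 55.2 ± 8.38 for C1qb. Masp1, the lectin pathway protease that joins Mbl proteins, stood at 15.5 ± 8.77 FPKM and its partner Masp2 at 122 ± 1.65. Of the lectins themselves Mbl1 stood at 161 ± 30.8 FPKM and Mbl2 at 10.5 ± 3.04.

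**Figure D1:**
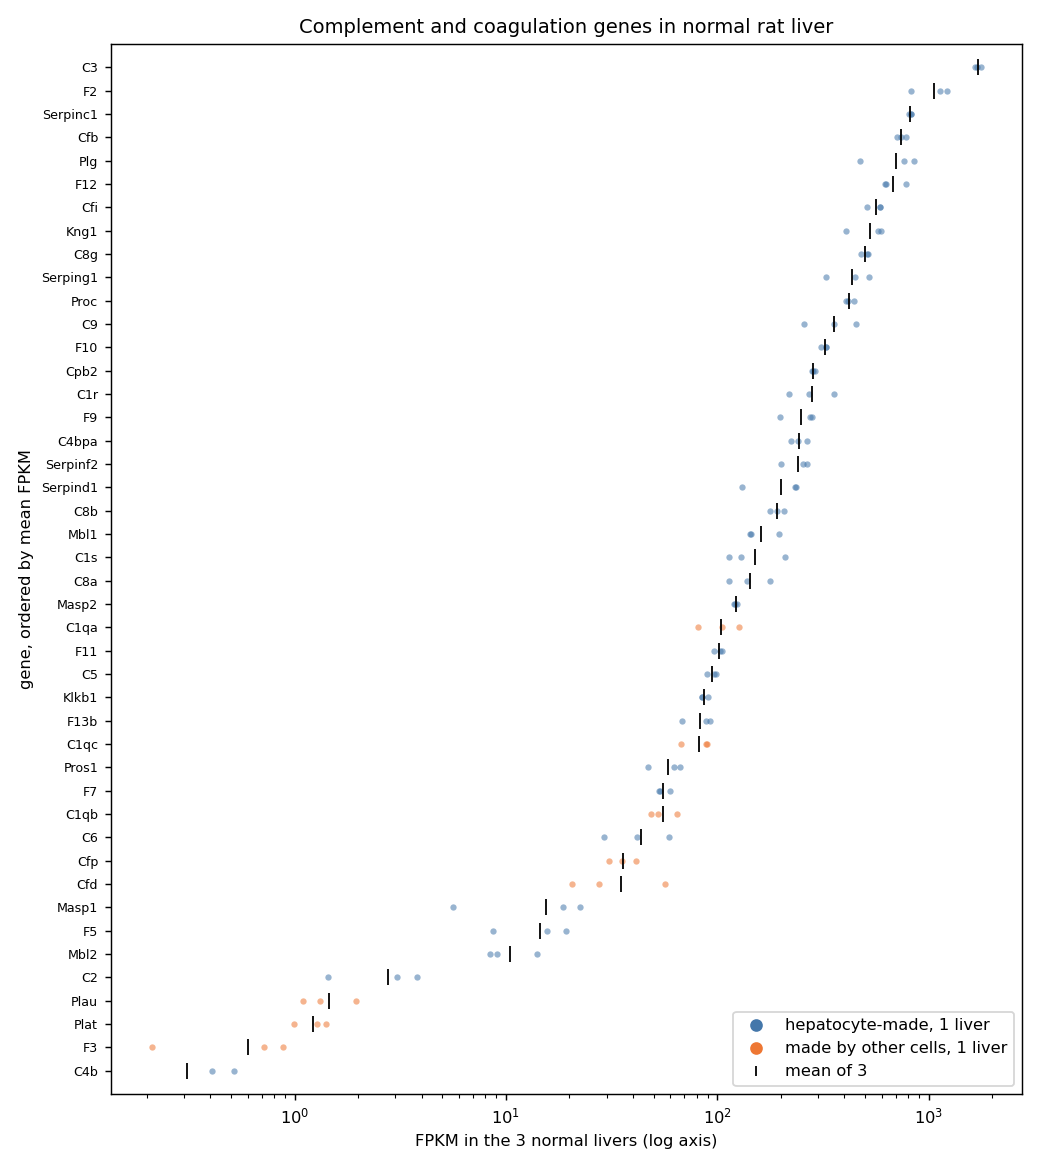
FPKM of the 44 genes in the 3 normal livers, on a log axis, ordered by their mean; each point is 1 liver, the bar is the mean, blue genes are hepatocyte-made and orange genes are made by other cells. C3 is highest at 1712 FPKM, C4b lowest at 0.31 FPKM, and the C4b value of 0 in the third normal rat cannot be drawn on this axis.

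The comparison of model and normal livers (Model VS Normal) asks what 9 weeks of CCl4 did to these transcripts. Model livers held more mRNA of the plasminogen activator Plat and of tissue factor F3, 20.6-fold and 6.78-fold by the fit. Lower estimates were found for 34 of the 36 hepatocyte-made genes, with a median log2 fold change of −0.88, which beside 0.02 over all 12730 genes tested is the broad feature of the comparison. No single hepatocyte-made gene passed the adjusted test in either direction. Of the 8 genes of other cells, 6 had higher estimates, with a median of 0.71. Without the first model rat that median was 0.09, with 5 estimates higher and 3 lower.

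Plat, which cuts plasminogen to plasmin and is made by endothelium and stroma, was at 4.24, 3.80 and 3.11 CPM in the normal livers, 156, 47.9 and 24.3 CPM in the model livers and 10.4, 7.95 and 11.5 CPM in the TA livers. Every model liver was above every TA liver, and every TA liver above every normal liver. The rise from normal to model was 4.36 ± 0.69 on the log2 scale (SE, edgeR quasi-likelihood test, adjusted p = 0.0159, n = 3 per group). Leaving out the first model rat gave 3.26 (adjusted p = 0.00331). F3, the membrane protein that starts clotting outside the vessel, was at 1.91, 0.451 and 1.59 CPM in normal, 5.92, 8.10 and 12.6 CPM in model and 8.40, 4.06 and 2.61 CPM in TA livers. Its 3 model values were all above the 3 normal values, and F3 rose by 2.76 ± 0.57 on the log2 scale (edgeR adjusted p = 0.0324). These were the only 2 of the 44 genes past an adjusted p of 0.05 (Benjamini-Hochberg over all genes), against 6.86% of all genes tested called higher and 1.01% called lower, so that the members' share was not above the background. Both calls were lost when any one normal rat was left out, with adjusted p of 0.0684 to 0.11 for Plat and 0.0841 to 0.125 for F3, and the F3 call was also lost without the second model rat (adjusted p = 0.0572). The calls over all genes fell as well, from 1002 to 51, 0 and 0 without normal rats 1 to 3, and to 589 without the second model rat.

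By a looser rule (an unadjusted p under 0.05 and at least a doubling or halving, that is a log2 value past 1), which 16.6% of all genes passed as higher and 5.55% as lower, 4 of the 44 genes were higher and 1 was lower. That total of 5 became 22 without the third model rat and 3 without the second normal rat. Over all genes the 2818 called became 3917 and 2352. Beside Plat and F3 the 5 members were Plau, C4b and C8g. Plau, the activator made by macrophages and stroma, was at 4.32, 2.90 and 2.52 CPM in normal livers and at 33.8, 3.95 and 5.73 CPM in model livers. One liver, that of the first model rat, carried this value: the log2 fold change was 2.17 ± 0.80 with it (edgeR adjusted p = 0.123) and 0.56 without it (adjusted p = 0.444). Plau also left the looser rule when the second or the third of the normal rats was left out. C4b was at 2.57, 3.22 and 0 CPM in normal livers and at 14.9, 8.43 and 12.8 CPM in model livers, a log2 fold change of 2.62 ± 0.92 (adjusted p = 0.112). Its close copy C4a, which holds most of the C4 counts, was at 301, 280.3 and 168 CPM in normal and 254, 211 and 200.1 CPM in model livers. The C4b counts amounted to 0 to 1.15% of the C4a counts in normal livers, 4.0% to 6.40% in model livers and 3.91% to 5.20% in TA livers. Reads of such near-identical genes can be assigned to either, so that the C4b values are uncertain.

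**Figure D2:**
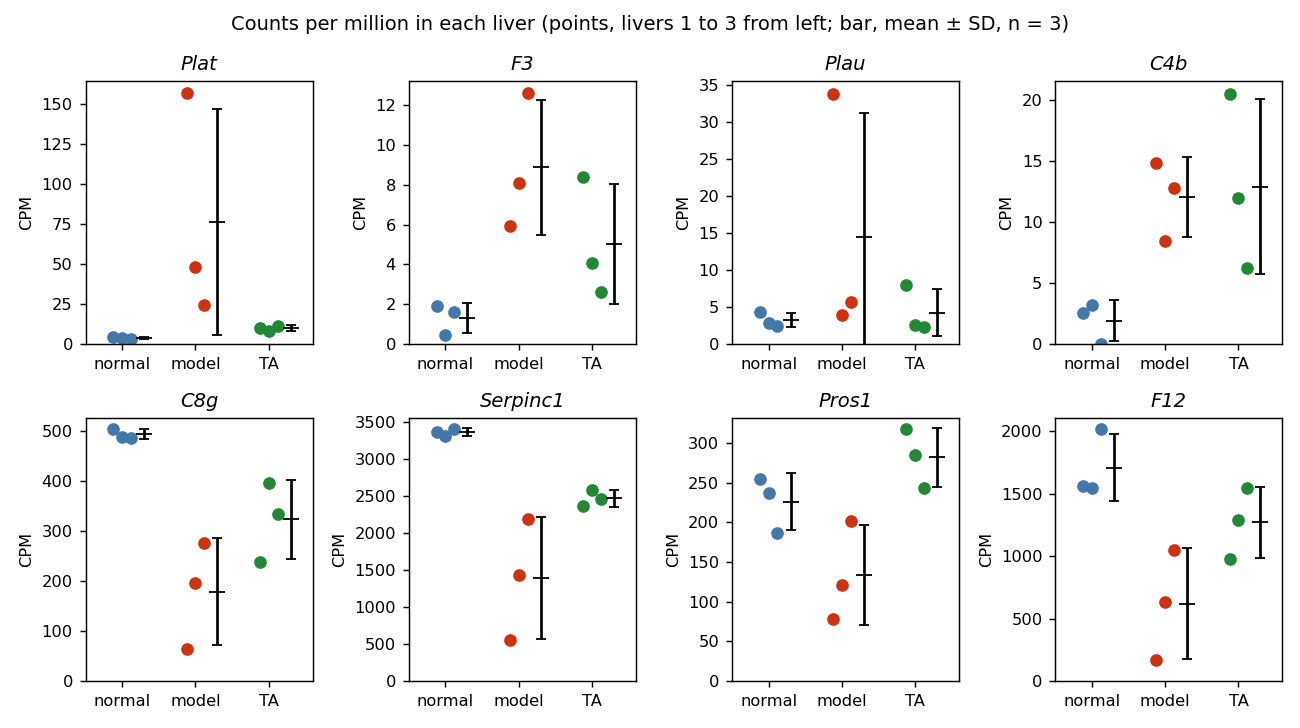
TMM-scaled CPM of 8 genes in every liver, with linear axes that start at 0; points are the livers of rats 1 to 3 from left to right, and the bar is the mean ± SD of 3 livers, with the lower end of the Plau model bar below the axis. Plat, F3 and C4b are higher in all 3 model livers than in any normal liver, Plau is high in 1 model liver at 33.8 CPM, and C8g, Serpinc1 and F12 are below the normal values in every model liver.

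C8g had the lowest p among the hepatocyte-made genes with lower estimates. C8 is built from an alpha, a beta and a gamma chain, and C8g encodes the gamma chain, a small protein of the lipocalin family. It was at 504, 488 and 486 CPM in normal livers, 63.3, 196 and 276 CPM in model livers and 239, 396 and 334 CPM in TA livers. The groups of model and normal livers did not overlap, and the log2 fold change was −1.46 ± 0.52 (edgeR adjusted p = 0.116), or −1.08 without the first model rat (adjusted p = 0.0537). Its unadjusted p passed 0.05, at 0.0519 to 0.0536, when any of the 3 normal rats or the second model rat was left out. C8b, the beta chain, was at 610.2, 551 and 541 CPM in normal and 105, 308 and 448 CPM in model livers, a log2 fold change of −0.98 ± 0.52 (adjusted p = 0.25). For C8a, the alpha chain, the values were 794, 608 and 526 CPM in normal and 144, 373 and 459.6 CPM in model livers, and the log2 fold change was −0.98 ± 0.49 (adjusted p = 0.223). The ratio of C8g to C8b in FPKM was 2.48 to 2.70 in normal livers, 1.82 to 1.91 in model livers and 1.36 to 2.17 in TA livers, whereas C8a to C8b ranged from 0.637 to 0.852 in normal and from 0.672 to 0.900 in model livers. Thus the gamma chain stood lower against the beta chain in every CCl4-exposed liver than in any normal one, and no test of the ratio was run.

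Of the 36 hepatocyte-made genes, 23 (63.9%) had every model liver below every normal liver, and 1, C4b, had every model liver above. Over all genes tested, 17.3% were without overlap in the lower and 20.9% in the higher direction. The count at an adjusted p under 0.05 was 0 of 36 by edgeR, and at an unadjusted p under 0.05 it was 1 lower and 1 higher, against 10.2% and 18.7% of all genes. DESeq2 called 2 lower (C8g and Serpinc1) and 1 higher (C4b), against 6.69% and 14.2% of all genes, and limma-voom with sample weights called 12 lower, against 11.5%. The edgeR and DESeq2 counts were not above these shares, and the limma-voom count was. Without the first model rat the median log2 fold change of the 36 genes was −0.57. Of the 36 estimates 33 were then nearer to 0, 24 of them by over 1.5 times or with a change of sign. Both other model livers were below every normal liver for 24 of the 36 genes. Leaving out a liver cannot end a separation, so that this count could not fall below 23 and does not test the pattern. The matching share of all genes was not counted. When library totals replaced TMM, the median over all genes moved from 0.02 to 0.65, that of the hepatocyte-made genes to −0.40, and 8 of the 36 estimates were then higher.

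**Figure D3:**
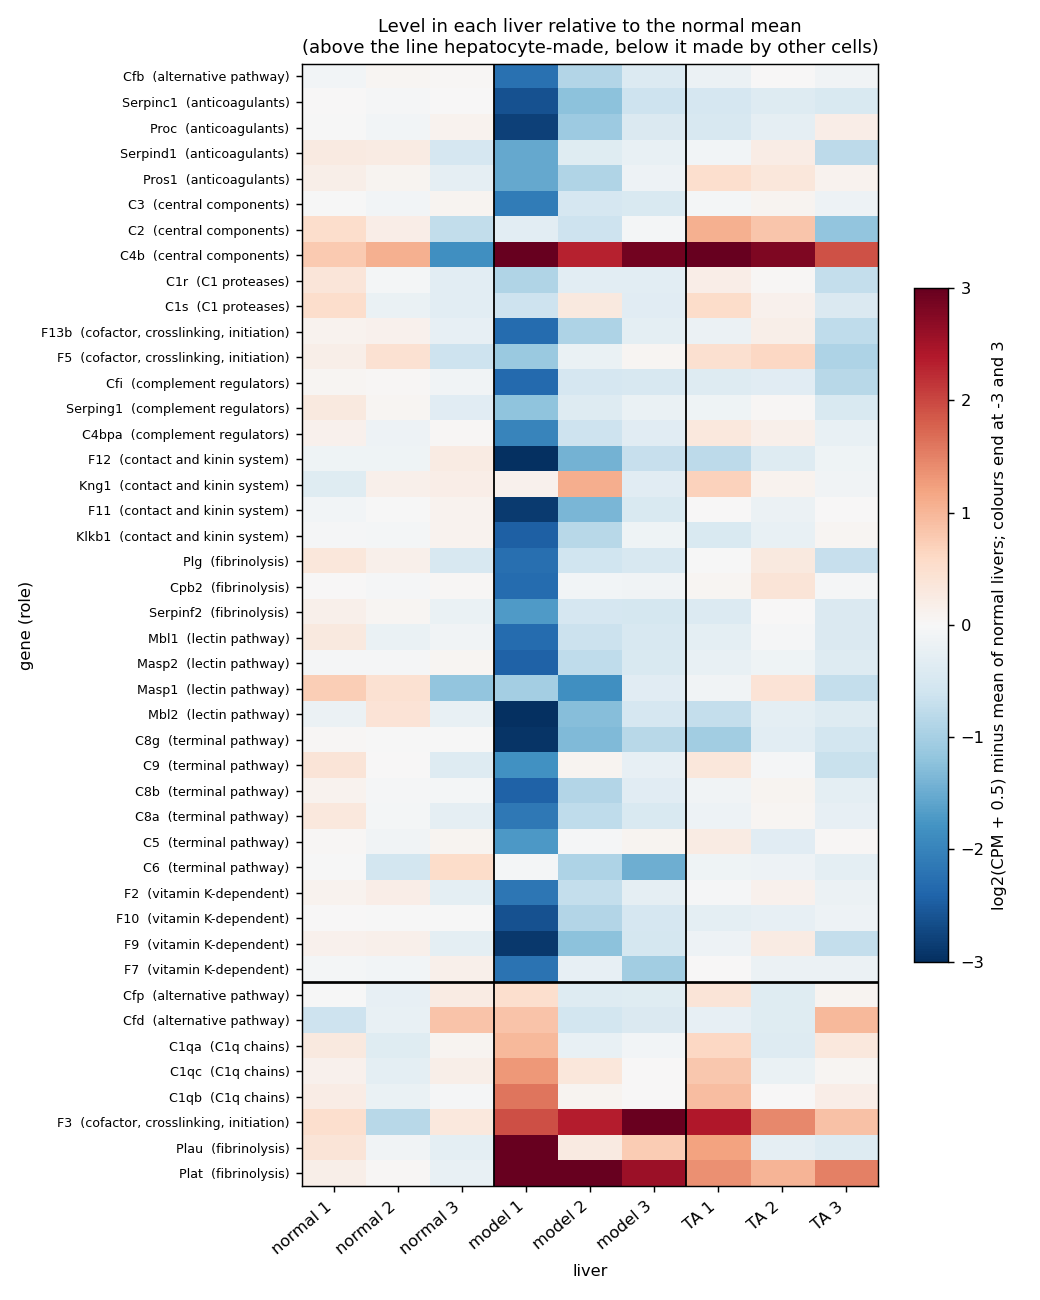
Level of each of the 44 genes (rows, with the role of the product) in each of the 9 livers (columns) as log2(CPM + 0.5) minus the mean of the 3 normal livers; blue is lower, red is higher, and colours end at −3 and 3. Above the line, where the hepatocyte-made genes stand, the column of the first model rat is the lowest of the 9 for 31 of 36 genes, and below it Plat and F3 are red in every model and TA liver.

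All 4 of the vitamin K-dependent clotting factors had lower estimates in model livers, with a median log2 fold change of −1.03. F2 was at 2768, 2949 and 2081 CPM in normal livers and at 568, 1571 and 2123 CPM in model livers, where the third rat lay within the normal range. F9, the factor missing in hemophilia B, had an estimate of −1.27 ± 0.59 (adjusted p = 0.196), F10 of −1.09 ± 0.54 (adjusted p = 0.221) and F7 of −0.96 ± 0.46 (adjusted p = 0.205). Every model liver was below every normal liver for F7, F9 and F10.

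In the contact and kinin system, F12 had the lowest estimate of the 44 genes, at −1.47 ± 0.67 (adjusted p = 0.19). Without the first model rat it was −1.03 and no longer the lowest. Its CPM were 1564, 1550.0 and 2017 in normal, 164, 637 and 1053 in model and 980.4, 1288 and 1546 in TA livers. F11 and Klkb1 (plasma prekallikrein) also had all model livers below all normal ones, with estimates of −1.26 ± 0.56 and −0.86 ± 0.53 (−0.47 for Klkb1 without the first model rat). Kng1, the source of bradykinin, had an estimate of 0.40 ± 0.55 (adjusted p = 0.657), which turned to −0.11 without the second model rat, with 1781, 3457 and 1281 CPM in model livers against 1272, 1821 and 1863 in normal livers. The groups overlapped for Kng1, which rats share with near-identical kininogen copies, so that its counts are uncertain.

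For the anticoagulants the median estimate was −0.96. Serpinc1, which blocks thrombin and factor Xa, was at 3366, 3306 and 3410.2 CPM in normal livers, 550.1, 1428 and 2194 CPM in model livers and 2357, 2585 and 2464 CPM in TA livers. The normal livers differed by little, the model livers by much, and the log2 fold change was −1.27 ± 0.62 (adjusted p = 0.212). Proc had an estimate of −1.15 ± 0.59, Pros1 of −0.76 ± 0.39 and Serpind1 of −0.64 ± 0.46. Among the hepatocyte-made genes of fibrinolysis, Plg was at 3359, 2943 and 1921 CPM in normal and 559, 1759 and 1900.2 CPM in model livers, an estimate of −0.96 ± 0.61 (adjusted p = 0.328). Serpinf2, the plasmin inhibitor, and Cpb2, which protects fibrin from plasmin, had estimates of −0.82 ± 0.43 and −0.54 ± 0.56, or −0.54 and −0.12 without the first model rat. All 3 had the model livers below the normal ones, so that plasminogen and its inhibitor lay low in the same livers in which Plat was high.

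The lectin pathway genes had the lowest median among the roles of complement, −1.08. Mbl1 was at 278, 198 and 211 CPM in normal and 45.5, 144 and 162 CPM in model livers (−0.97 ± 0.47, adjusted p = 0.215). Mbl2 was at 12.4, 18.8 and 11.9 CPM in normal and 0.763, 5.53 and 9.69 CPM in model livers (−1.44 ± 0.73, adjusted p = 0.227). Masp2 stood at 353, 351 and 375 against 66.6, 212 and 261 CPM (−1.0 ± 0.49, adjusted p = 0.218). In each of these 3 the model livers were all below the normal ones. Masp1 was at 75.9, 62.1 and 19.7 CPM in normal and 22.0, 12.4 and 35.9 CPM in model livers, where the third normal rat fell among the model values (−1.16 ± 0.54, adjusted p = 0.196).

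The classical pathway genes were less far from normal. C1r and C1s, the proteases of C1 that stromal cells also make, had estimates of −0.51 ± 0.41 (adjusted p = 0.435) and −0.22 ± 0.42 (adjusted p = 0.762), and both estimates turned positive under library totals, to 0.06 and 0.36. C1r was at 1171, 879.6 and 739 CPM in normal, 491, 731 and 734 CPM in model and 1042, 937 and 557 CPM in TA livers. C1s was at 751, 457 and 422 CPM in normal, 343, 642 and 415 CPM in model and 767, 579 and 388 CPM in TA livers. The C1s groups overlapped, and the C1r groups of normal and model livers were barely apart, at 739 CPM for the lowest normal and 734 CPM for the highest model liver. Of the central components, C3 was at 10455, 10040.2 and 11269 CPM in normal and 2467, 7472 and 7672 CPM in model livers, an estimate of −0.85 ± 0.72 (adjusted p = 0.463), or −0.50 without the first model rat. C2, the protease that partners C4, had overlapping groups and an estimate of −0.43 ± 0.40.

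Cfb, the protease of the alternative pathway, was at 2137, 2338 and 2308 CPM in normal and 482, 1233 and 1697 CPM in model livers (−0.99 ± 0.57, adjusted p = 0.283). Cfi, which cuts C3b and C4b, was at 1459.7, 1436 and 1306 CPM in normal and 276, 989 and 1008 CPM in model livers (−0.88 ± 0.56, adjusted p = 0.327). Model livers were below normal livers in both. C4bpa and Serping1 had estimates of −0.82 ± 0.48 and −0.56 ± 0.44. In the terminal pathway all 6 genes had lower estimates, and beside the C8 chains C6 had −0.77 ± 0.44, C9, which forms the bulk of the pore, −0.48 ± 0.56 (−0.12 without the first model rat), and C5 −0.36 ± 0.50. The C5 estimate without the first model rat was 0.00, since the other model livers, at 600.2 and 643 CPM, lay within the normal range of 565 to 644. F13b, the carrier chain of the fibrin crosslinker, was at 247, 254 and 196 CPM in normal and 46.5, 122 and 189 CPM in model livers (−0.96 ± 0.48, adjusted p = 0.226), and F5, a cofactor of thrombin formation, had −0.40 ± 0.40, or −0.16 without the first model rat.

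Among the genes of other cells, the 3 chains of C1q were highest in the first model rat. C1qa was at 157, 98.8 and 135 CPM in normal, 250.1, 109.5 and 122 CPM in model and 197, 97.6 and 159.6 CPM in TA livers. C1qb was at 83.0, 61.5 and 69.4, at 217, 75.4 and 71.2 and at 135, 70.9 and 80.6 CPM in the same order, and C1qc at 116, 85.3 and 118, at 262, 133 and 105 and at 186, 91.0 and 109 CPM. The groups overlapped for every chain. Their Model VS Normal estimates of 0.30 ± 0.39, 0.77 ± 0.46 and 0.65 ± 0.39 became −0.19, 0.02 and 0.15 without that rat, and none passed the test with it or without it (adjusted p from 0.296 to 0.964). Cfp (properdin, from myeloid cells) and Cfd (factor D, also known as adipsin) had estimates of −0.03 ± 0.31 and −0.03 ± 0.50, and over the rats left out these ran from −0.41 to 0.12 and from −0.66 to 0.50. The summed level of the 10 macrophage and Kupffer cell markers was 409 to 568 CPM in normal, 484 to 2383 CPM in model and 456 to 850.4 CPM in TA livers, the highest again in the first model rat. Lyz2 alone was at 1618 CPM in that rat, and the markers went both ways. Of the 9 tested, 4 (Cd68, Adgre1, Ptprc and Lyz2) had every model liver above every normal liver, against 20.9% of all genes. Their estimates of 2.16, 1.01, 0.98 and 3.21 became 0.63, 0.47, 0.71 and 1.73 without the first model rat. Another 3 (Clec4f, Marco and Cd14) had every model liver below, against 17.3% of all genes. The 4 fat markers found in the tables summed to 88.4 to 101 CPM in normal, 57.9 to 424 CPM in model and 75.3 to 108 CPM in TA livers. Within that list Fabp4, which endothelium and macrophages also make, was at 409, 61.8 and 7.85 CPM in model livers against at most 2.08 CPM in normal livers, Cidec was lower in every model liver than in any normal liver, and Adipoq was at 0 to 0.263 CPM in all livers.

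Hepatocyte markers were lower in the same livers as the hepatocyte-made factors. The mean difference of 10 markers between model and normal livers was −1.50 on the log2 scale and the median difference of the 36 genes −1.08. Measured against the marker mean, the 36 genes stood 0.42 higher by the median, with 31 of the 36 higher and 5 lower. The fitted marker estimates ran from −1.86 (Apoc3) to −0.14 (Apoa1), which spans the fitted median of the 36 genes, −0.88. The position against the markers thus depends on the markers taken. By liver that median was 0.69, 0.32 and 0.24 in model rats 1 to 3, against 0.11, 0.04 and −0.16 in the normal rats. In bulk liver, fewer hepatocytes and less mRNA per hepatocyte cannot be told apart. Markers of other cells moved as well. The sum of 9 stellate cell and myofibroblast markers was 218 to 313 CPM in normal, 1172 to 12510.1 CPM in model and 671 to 1173 CPM in TA livers, that of 6 cholangiocyte markers at most 23.9 in normal, 86.2 to 159 in model and 30.0 to 34.6 CPM in TA livers, and that of 5 mesothelial markers 0.839 to 2.49, 25.1 to 83.7 and 4.65 to 13.5 CPM. The highest stellate sum was that of the first model rat, with Col1a1 at 4442 and Col3a1 at 6901 CPM. Of the 9 stellate markers 8 had higher Model VS Normal estimates and 1, Lrat, a lower one. Sums of 7 endothelial markers were 307 to 342, 276 to 598 and 344 to 393 CPM. These markers went both ways in Model VS Normal, with 4 higher and 3 lower estimates (Kdr, Stab2 and Clec4g), from −1.04 to 1.84. The part of these cells in the higher Plat, F3 and C4b levels was not tested.

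**Figure D4:**
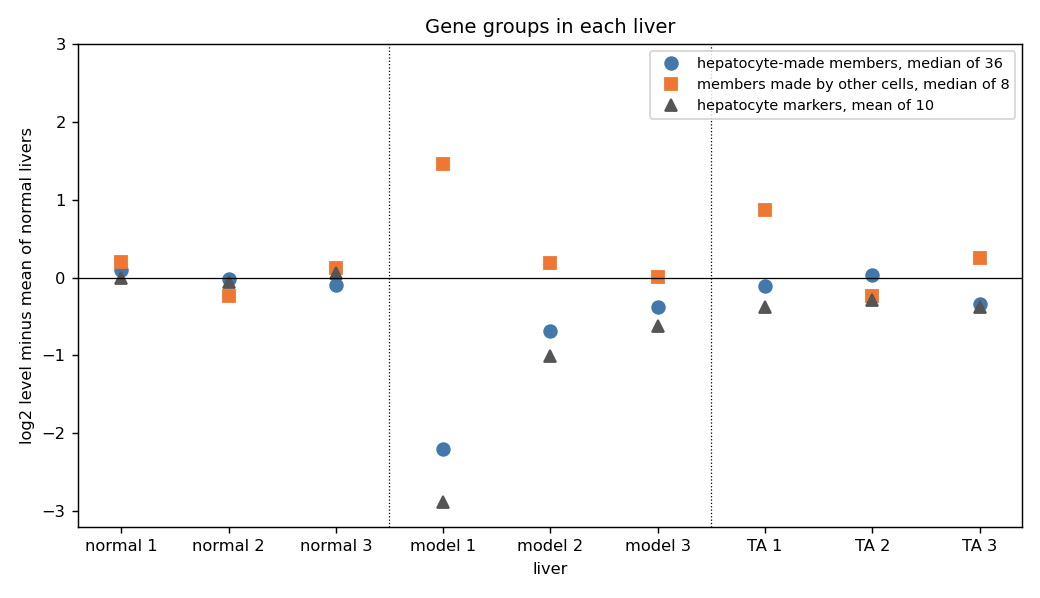
Level of each gene group in each liver as the log2 difference from the mean of the 3 normal livers; circles are the median of the 36 hepatocyte-made genes, squares the median of the 8 genes of other cells and triangles the mean of 10 hepatocyte markers. The first model rat stands at −2.20 for the hepatocyte-made genes and −2.88 for the markers, and the other model rats at −0.68 and −0.38 for the genes.

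The spread among model livers was wide. The median coefficient of variation of the 36 hepatocyte-made genes was 15.6% over the normal, 53.7% over the model and 18.2% over the TA livers. Relative to the normal mean, the median of the 36 genes was −2.20, −0.68 and −0.38 in model rats 1 to 3, and −0.10, 0.03 and −0.34 in the TA rats. The first model rat was the lowest of all 9 livers for 31 of the 36 genes, and the third was the highest of the model livers for 28. The 44 genes took 1.96%, 3.21% and 3.08% of the counts in model livers and 2.97% to 3.71% in TA livers.

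The comparison of TA and model livers (TA VS Model) asks what the treatment changed in rats that had received CCl4. Higher estimates in TA livers were found for 35 of the 36 hepatocyte-made genes, with a median log2 fold change of 0.82 beside −0.00 over all 12781 genes tested. Plat was lower in TA livers by 7.67-fold, and protein S (Pros1) was higher by 2.12-fold. Neither passed the adjusted test. None of the 44 genes was called at an adjusted p under 0.05 by edgeR, as was 0% of all genes tested. At an unadjusted p under 0.05 there were 2 of the 44, against 15.6% of all genes, so that the members' share was not above the background. DESeq2 and limma-voom each called 1, Plat, lower, against 3.69% and 0.947% of all genes.

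Plat in TA livers, at 10.4, 7.95 and 11.5 CPM, lay below the model values of 24.3 to 156 CPM without overlap. The log2 fold change was −2.94 ± 0.66 (edgeR adjusted p = 0.231), and −1.84 without the first model rat (adjusted p = 0.27). With all 6 livers the adjusted p ranged from 0.00108 (DESeq2) to 0.236 (relative log expression size factors). Pros1, the cofactor of protein C, which endothelium also makes, was at 77.6, 120.4 and 202 CPM in model and 318, 285 and 243 CPM in TA livers, and at 255, 237 and 186 CPM in normal livers. All TA livers were above all model livers, with a log2 fold change of 1.08 ± 0.41 (adjusted p = 0.284). Without the first model rat it was 0.82, and its unadjusted p exceeded 0.05 without the second model rat (0.0953), the first TA rat (0.0846) or the second TA rat (0.0676), and with library totals (0.0707). By the looser rule these 2 were the members called, 1 higher and 1 lower, against 2.11% of all genes higher and 10.2% lower. The total of 2 became 12 without the third model rat, 4 without the third TA rat and 1 without the first model or the second TA rat. Over all genes the 1571 called became 2792, 1252, and 792 or 973 in the same order. F3 and Plau had lower estimates in TA livers, −0.81 ± 0.50 (adjusted p = 0.434) and −1.76 ± 0.88 (adjusted p = 0.362), with overlapping groups; without the first model rat Plau stood at −0.16. C4b was at 20.5, 11.9 and 6.27 CPM in TA livers, within reach of the model values (0.10 ± 0.44, adjusted p = 0.925), and its estimate changed sign under library totals, to −0.39.

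Among the 36 hepatocyte-made genes, 15 (41.7%) had every TA liver above every model liver and 0 the reverse, against 10.5% and 12.6% of all genes tested. Without the first model rat the median of the 36 genes was 0.45, with 33 higher estimates, and 30 of the 36 were nearer to 0 by over 1.5 times or changed in sign. Under library totals it was 0.44, beside −0.48 over all genes, with 30 higher estimates. At an unadjusted p under 0.05 there was 1 of the 36 by edgeR (Pros1), 3 by DESeq2 and 11 by limma-voom, all higher. In either direction 15.6%, 19.5% and 27.2% of all genes passed these. In the higher direction alone 4.17% passed by edgeR, and the edgeR count of members was not above that share. The higher share at that p was not counted for DESeq2 and limma-voom, so that their counts cannot be set against it. The hepatocyte markers were higher in TA livers as well, by a mean of 1.15 on the log2 scale against a median of 0.97 for the 36 genes, which then stood 0.18 lower relative to the markers, with 6 genes higher and 30 lower. By liver, their median relative to the markers and to normal was 0.69, 0.32 and 0.24 in model rats 1 to 3. In TA rats 1 to 3 it was 0.27, 0.32 and 0.04. The first model rat lay above the TA range and the second at its upper end.

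By role, the vitamin K-dependent factors had a median of 0.87 in TA against model livers, with F9 at 1.11 ± 0.62 (adjusted p = 0.398), F10 at 0.87 ± 0.54, F7 at 0.86 ± 0.46 and F2 at 0.84 ± 0.60. Without the first model rat these were 0.70, 0.47, 0.50 and 0.47. F2, F7 and F10 had no overlap between TA and model livers, and F2 was at 2501, 2800.1 and 2284 CPM in TA livers. The contact genes F11 and F12 had the estimates 1.22 ± 0.56 (adjusted p = 0.337), the highest of the 44, and 1.05 ± 0.67 (adjusted p = 0.449). Without the first model rat they were 0.80 and 0.60, and F11 was no longer the highest. Anticoagulants had a median of 0.92 and lectin pathway genes of 0.83. Mbl1 at 185, 222 and 168 CPM and Masp2 at 310.2, 330.3 and 274 CPM were above every model liver, and Mbl2 at 8.33, 11.3 and 10.7 CPM and Masp1 at 42.2, 60.6 and 27.5 CPM were not. C8a and C8b in TA livers, at 573, 655 and 535 CPM and 528, 598 and 463 CPM, were above every model liver, whereas C8g overlapped with the model values (0.86 ± 0.53, adjusted p = 0.438, or 0.47 without the first model rat). C3 at 10104, 11125 and 9457 CPM and Cfb at 1989.5, 2259.5 and 2095 CPM were also above all model livers. Their estimates were 0.81 ± 0.73 and 0.90 ± 0.57, or 0.45 and 0.54 without the first model rat. Cfi had 0.38 ± 0.56, at −0.01 without that rat. F13b and Plg, at 203, 260.4 and 136 CPM and at 2631, 3269.6 and 1645 CPM in TA livers, overlapped with the model values.

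C1r and C1s had TA VS Model estimates of 0.38 ± 0.44 and 0.31 ± 0.44, which under library totals were −0.04 and −0.10. The 8 genes of other cells had a median of −0.36, and 0.26 without the first model rat. For the 3 C1q chains the estimates were −0.08 ± 0.43 (C1qa), −0.34 ± 0.50 (C1qb) and −0.38 ± 0.45 (C1qc). Without the first model rat they changed sign, to 0.40, 0.40 and 0.12.

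**Figure D5:**
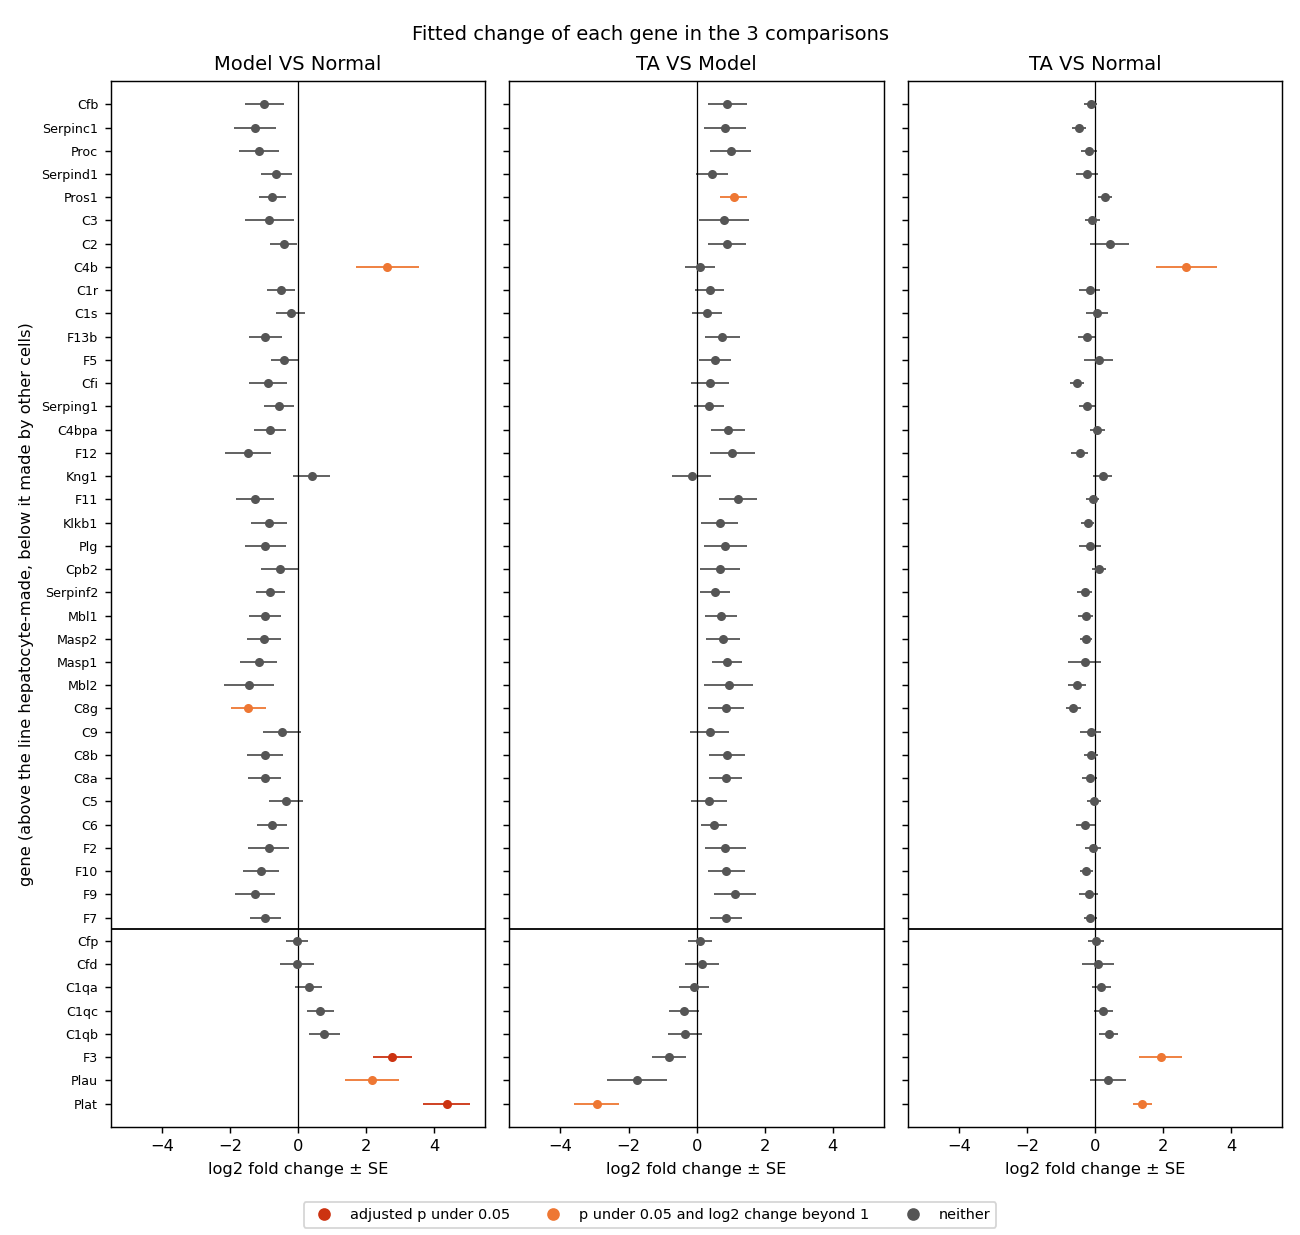
Fitted log2 fold change ± SE of each of the 44 genes in Model VS Normal, TA VS Model and TA VS Normal (edgeR, 3 livers per group); red points passed an adjusted p of 0.05, orange points the looser rule. Most genes above the line are left of 0 in the first panel and right of 0 in the second, with error bars that are shorter in the third, and only Plat and F3 are red.

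The comparison of TA and normal livers (TA VS Normal) asks what remained different from healthy liver after the treatment. Plat was still 2.62-fold, F3 3.79-fold and C4b 6.41-fold above normal. The 36 hepatocyte-made genes were close to their normal levels, with a median log2 fold change of −0.16 beside −0.01 over all 12179 genes tested. Of the 36, 28 had lower and 8 higher estimates. Under library totals the median was 0.02, beside 0.18 over all genes, with 19 of 36 estimates higher.

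None of the 44 genes passed an adjusted p of 0.05 by edgeR, against 0.263% of all genes, and DESeq2 called 1, Plat. By the looser rule 3 of the 44 were higher, against 4.24% of all genes, and 0 were lower, against 1.02%. These were Plat (1.39 ± 0.28, adjusted p = 0.109), F3 (1.92 ± 0.62, adjusted p = 0.329) and C4b (2.68 ± 0.89, adjusted p = 0.346). Each had every TA liver above every normal liver. The F3 and C4b values passed that rule no longer without the first TA rat (1.32 and 2.18, with unadjusted p of 0.0769 and 0.0614), whereas Plat still passed it when any one of the 6 rats was left out, and C4b had an unadjusted p of 0.0685 by DESeq2. At an unadjusted p under 0.05 alone, 3 hepatocyte-made genes were lower: C8g (−0.64 ± 0.23), Cfi (−0.54 ± 0.22) and Serpinc1 (−0.47 ± 0.19). These 3 of 36 stand beside 3.44% of all genes lower at that p. With the rat number as a block there were 5, with F12 and Mbl2 added, while the genes at that p in either direction went from 1148 to 2280 of 12179. All 3 had every TA liver below every normal liver, and their adjusted p were 0.406 to 0.477. Under library totals C8g was at −0.46, Cfi at −0.35 and Serpinc1 at −0.29, and none had p under 0.05. Each also lost p under 0.05 when single rats were left out, with p up to 0.0794 for C8g, 0.102 for Cfi and 0.101 for Serpinc1. Counting those 3, 7 of the 36 (19.4%) had TA livers below normal ones without overlap, against 6.81% of all genes, and 1, C4b, above, against 8.26%.

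The TA mean lay between the model and the normal mean for 28 of the 36 hepatocyte-made genes and above the normal mean for 8. TA VS Normal shares its TA livers with the previous comparison and its normal livers with the first, so that these positions are not independent of the values above. Hepatocyte markers in TA livers were 0.35 below normal on the log2 scale by the mean, and relative to them the 36 genes stood 0.21 higher, with 31 higher and 5 lower.

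Other genes of the same pathways, outside the 44, were followed with a list of 65, of which 58 were in the tables and 53 were tested in Model VS Normal. They comprise further plasma factors of hepatocytes such as the fibrinogen chains, factors and inhibitors of other cells, receptors and membrane regulators, and the vitamin K cycle. Of the 53, 11 were called higher at an adjusted p under 0.05 by edgeR and 0 lower, against 6.86% and 1.01% of all genes. At an unadjusted p under 0.05 there were 23, against 28.9% of all genes, and DESeq2 called 17 higher and 3 lower, against 14.2% and 6.69%. Those 11 were 5 of 12 factors of other cells and 6 of 21 receptors and membrane regulators. None of 16 plasma factors of hepatocytes was called at an adjusted p. At an unadjusted p under 0.05, 2 of the 16 were lower, near the share of 10.2% of all genes. All 16 had lower estimates, with a median of −0.68. The fibrinogen genes Fga, Fgb and Fgg, picked for their role after their values were seen, were at −0.38 ± 0.64, −0.70 ± 0.64 and −0.36 ± 0.61.

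The 3 with the largest changes were Bdkrb2, C7 and Colec12. Bdkrb2, the B2 receptor of bradykinin, was at 0.083, 0.0644 and 0.0839 CPM in normal, 2.24, 3.49 and 3.61 CPM in model and 0.783, 0.169 and 0.373 CPM in TA livers, and it rose by 5.21 ± 0.59 on the log2 scale from normal to model (edgeR adjusted p = 0.00899). Its normal livers held 3 counts in all and its model livers 154, a ratio of 39.2 with an exact 95% interval of 13.2 to 192 that covers counting error only. C7, the pore component that stromal cells make, was at 9.63, 7.53 and 1.68 CPM in normal, 272, 41.9 and 108 CPM in model and 67.9, 31.0 and 34.4 CPM in TA livers, a rise of 4.49 ± 0.86 (adjusted p = 0.0268). Colec12, a membrane collectin, was at 1.99 to 2.10 CPM in normal, 14.2 to 56.9 CPM in model and 4.77 to 11.1 CPM in TA livers, a rise of 3.88 ± 0.57 (adjusted p = 0.0136).

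In TA VS Model 0 of 54 of these genes passed an adjusted p of 0.05 by edgeR, and 4 were higher and 18 lower at an unadjusted p under 0.05, against 4.17% and 11.5% of all genes. DESeq2 called 0 higher and 8 lower, against 0.54% and 3.69%. With a log2 change beyond 1 as well, 1 was higher and 17 were lower, against 2.11% and 10.2% of all genes. The lowest were F2rl1 (a protease-activated receptor), at −3.39 ± 1.03, with values of 1.48 CPM or less in every liver, F13a1 (the catalytic chain of factor XIII, from macrophages and platelets), at −2.77 ± 1.16, and Bdkrb2, at −2.77 ± 0.61, with adjusted p of 0.26, 0.311 and 0.23. F13a1 was at 11.8 CPM in the first model rat and at most 0.846 CPM in the other 8 livers, and its estimate without that rat was −0.07. In TA VS Normal 0 of 50 passed the adjusted test by edgeR, and 9 were higher and 1 lower at an unadjusted p under 0.05, against 5.99% and 3.44% of all genes, while DESeq2 called 3 higher and 1 lower, against 2.32% and 0.632%. The largest changes were those of C7 (2.79 ± 0.58, adjusted p = 0.113) and Colec12 (2.04 ± 0.38, adjusted p = 0.0913). Both had every TA liver above every normal liver, and both had lower estimates in TA than in model livers, of −1.67 ± 0.66 and −1.81 ± 0.58.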

How the data were processed

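Poly(A) RNA of 9 livers was sequenced as paired 150-base reads. The authors trimmed the reads with Trimmomatic and Cutadapt, aligned them with STAR and counted reads per gene with HTSeq-count, and they deposited raw counts per gene. The authors also deposited FPKM values per gene, used here only to compare levels between genes. Their comparison columns (fold changes and p-values) were not used. The methods name a human and the labels a mouse genome build although the symbols are those of rat genes, so the build is uncertain, and no coordinates of the counts are given; whether strand was used in counting is not given in the sources used here. A table of normal and model livers (16938 genes) and a table of TA and model livers (16948 genes) shared 16730 genes with identical model counts, and TA VS Normal was fitted on these.

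Counts were tested with edgeR 4.0.16 (R 4.3.3) by the quasi-likelihood test, with TMM scaling and filterByExpr, on the 2 groups compared, with Benjamini-Hochberg adjustment over all genes tested. The SE of an estimate was derived from its F statistic, as its size over the root of F. Levels per liver are CPM scaled by TMM over all 9 libraries, with 0.5 added before log2. Groups came from the labels, and nothing beyond separate rats with numbered labels describes the replicates, so p-values measure the spread between these livers. The script was tested on simulated counts. DESeq2 1.42.0, limma-voom 3.58.1, other scalings and filters, and leaving out each rat were tried as alternatives. In TA VS Normal the residuals of rats that bear one number went together (r = 0.258 to 0.501 across genes), and not in the other comparisons. With 3 rats a group and no pairing in the labels, this does not show that the rats were paired. The 44 genes, the gene lists and the rules were chosen with earlier results of these data known. Values per liver were printed for members called in any comparison, for chains of one complex and for the member with the highest FPKM of each role. Of the other pathway genes, the 3 with the largest change among those called at p under 0.05 and a log2 change beyond 1 were named per comparison, except 1 gene that is not reported here.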

Additional observations from a re-analysis of the deposited data

How the results depend on the processing

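For the members with values printed per liver, single genes gave 840 values under the alternatives over 56 results. Of these, 798 kept direction and side of the threshold, 16 newly passed it, 7 no longer passed it and 19 changed sign, in 10 results. Over all 44 genes the sign changed with 1 rat left out for 6 in Model VS Normal, 9 in TA VS Model and 20 in TA VS Normal. The 6 include C5, Cfd, Cfp and Kng1, which are not among the 56 results. Among the 56 results the sign changes were in Model VS Normal C1qa (−0.19 by limma-voom, −0.19 to 0.51 over the rats left out), C1r (0.062 with library totals) and C1s (0.36 with library totals, −0.52 to 0.071), and in TA VS Model C1qa (0.33 by limma-voom, −0.31 to 0.40), C1qb (0.35, −0.67 to 0.40), C1qc (0.031, −0.73 to 0.12), C1r (−0.037 with library totals), C1s (−0.10), C4b (−0.39, and −0.39 to 0.44 over the rats left out) and Cfi (−0.0057 to 0.66). The cause was not tested.

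Counts of members called depended on the tool. In Model VS Normal the 2 adjusted calls were 6 by DESeq2, 14 by limma-voom and 0 to 4 over the rats left out, and the 5 calls by p and fold were 17, 11, 13 with all 9 libraries in 1 fit and 3 to 22. Over all genes the 1002 adjusted calls were 2654, 3433 and 0 to 2537 in the same order. The 2818 calls by p and fold over all genes were 3113, 2940, 3066 and 2061 to 3917. In TA VS Model 0 adjusted calls became 1 by DESeq2 and 1 by limma-voom, and 2 calls by p and fold became 4, 6, 4 with all 9 libraries and 1 to 12. Over all genes 0 adjusted calls became 541 and 169, and 1571 by p and fold became 1861, 1711, 1788 and 792 to 2792. In TA VS Normal 0 adjusted calls became 1 by DESeq2, and 3 by p and fold became 1 to 3. Over all genes 32 adjusted calls became 360 by DESeq2, and 640 by p and fold became 525 to 918. The TA VS Model median of the hepatocyte-made genes, 0.82, was 0.65 by limma-voom, 0.44 with library totals and 0.45 to 1.14 over the rats left out, and that of the genes of other cells, −0.36, was 0.16, −0.96 and −0.70 to 0.26.

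With the rat number as a replicate block, the members called at an adjusted p stayed at 2, 0 and 0, and those called by p and fold were 10 in Model VS Normal (5 without the block), 4 in TA VS Model (2) and 3 in TA VS Normal (3). Over all genes the calls by p and fold with the block were 2922 (2818 without it), 1719 (1571) and 730 (640). Residuals of rats with one number went together only in TA VS Normal, which does not show that these rats were paired. There the block changed no call of a member by either rule. It moved the hepatocyte-made genes lower at an unadjusted p under 0.05 from 3 to 5. Over all genes it moved the number at that p, in either direction, from 1148 to 2280. C4b in TA VS Model was −0.0019 with the block.

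With 3 livers a group and a model group that spread widely, changes of the size seen in most hepatocyte-made genes, near 1 on the log2 scale, did not pass the adjusted test by edgeR, and their absence from the calls does not show that they were equal. F3, C4b, Plat and Plau had few counts in normal livers.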
